A study of Mus musculus with 19 samples.

Results

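The measurements below describe the 2 kidney samples of the series against the only 3 other arrays that failed the same background criterion. The members were chosen by the scanner software's own quality value. On kidney replicates 1 and 2, gonad replicate 3, heart replicate 1 and tail replicate 2 the net signal of the negative control spots was out of the accepted range, so 5 of 19 samples entered, 2 from kidney and 3 from other organs. The backgrounds were not equal, and only heart 1 was near kidney. The series covers 7 organs (kidney, gonad, heart, tail, lung, liver, skin), and its cells, labelled as fibroblasts, came from mice aged 8 to 10 weeks. The labels used here name no strain, sex or genotype for any group, and no treatment that separates the groups. Pieces of each organ were dissociated over 40 min at 37 °C, either in 0.5 mg/mL collagenase or in 0.05% trypsin. Culture lasted 5 days with 10% serum, and each array received Cy3-labelled RNA made from 0.1 µg of total RNA. No sorting step is described, so a culture holds whichever cells attached and grew. Whether the replicates of an organ are separate animals is not given in the labels, and p-values below therefore measure only the spread between these samples. Between the 2 kidney arrays that spread may be technical. The 3 comparison arrays come from 3 organs, so the spread among them holds differences between organs and between arrays. The test asks whether kidney lies outside that spread.

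Fibroblasts make the collagen-rich matrix of an organ and are usually known by fibrillar and type VI collagens, small proteoglycans and PDGF receptors. The kidney is dominated by epithelium. Its tubule cells are joined by cadherins and claudins, carry simple keratins 8 and 18, and depend on transcription factors such as PAX8. Tubule cells placed in culture are known to lose the transporters that define their segment while they keep keratins and junctions, and injured tubule cells make HAVCR1 and LCN2. On these arrays Col6a1 and Col6a2 of type VI collagen, decorin, lumican and Pdgfra were lower in the kidney cultures. Type I collagen overlapped heart 1 or came close to it, and Col6a3, another type VI chain, lay above heart 1. Cdh16, Pax8 and Pdzk1ip1 were higher, while most genes of single nephron segments were not. The cultures are therefore called here by their organ, not by cell type. The RNA was taken from whole cultures, in which fewer cells of a type and less RNA per cell cannot be told apart.

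Levels are log2 of the processed spot signal minus the 75th percentile of the same array, so 0 is a level that 75% of the probes on that array do not exceed. The net signal of the negative control spots was 179.7 and 107.7 on kidney 1 and kidney 2, 130.7 on heart 1, 44.6 on gonad 3 and 48.3 on tail 2, against 31.8 to 35.6 on the 13 other arrays. The span of gene levels from the 5th to the 95th percentile was 5.84 and 7.43 log2 units in kidney and 6.83 on heart 1. It was 9.07 on gonad 3, 9.96 on tail 2 and 11.6 to 12.99 on the other 13. Heart 1 is therefore the comparison array whose scale was most like kidney, and each group of genes is also given against heart 1. Between 84.8% and 96.5% of probes were flagged well above background on the 5 arrays, against 50.1% to 76.8% elsewhere, so that flag is weak evidence of expression here. Over genes, which are not independent replicates, the kidney arrays had a Pearson r of 0.956 with each other, 0.922 and 0.930 with heart 1, and 0.865 and 0.909 with gonad 3. Heart 1 had 0.903 with gonad 3 and 0.875 with tail 2, so over all genes it was closer to kidney than to those arrays.

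**Figure D1:**
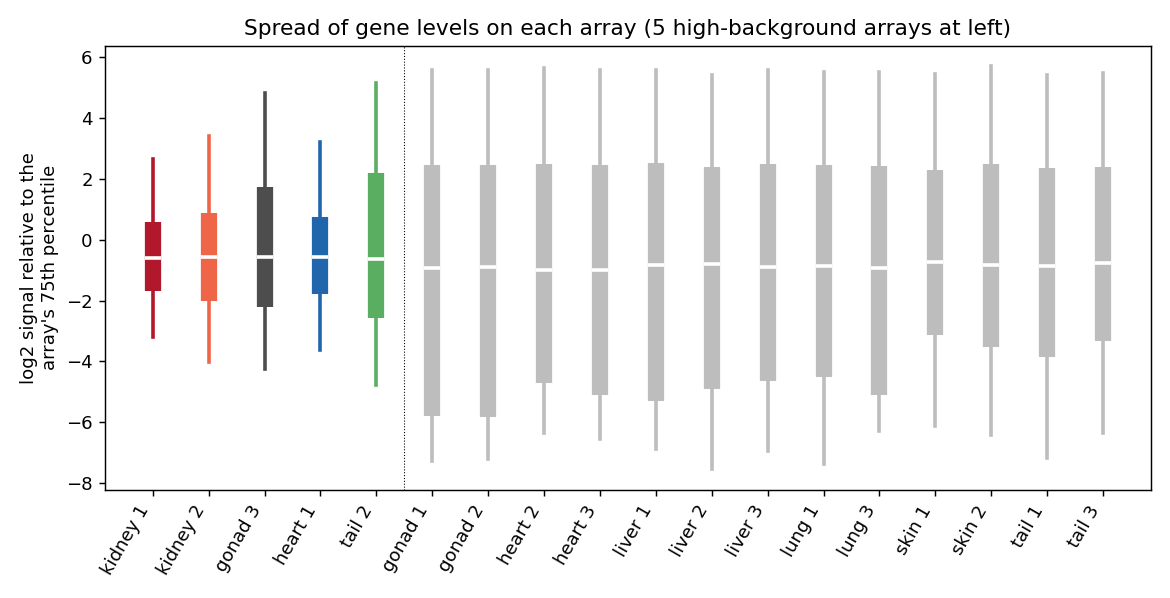
Spread of gene levels on each of 18 arrays, with the level (log2 signal relative to the 75th percentile of the array) on the vertical axis, thin lines from the 5th to the 95th percentile, boxes from the 25th to the 75th and white ticks at the median. The kidney arrays and heart 1 span 5.84 to 7.43 units, and the 13 other arrays span 11.6 to 12.99.

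Of 19567 genes tested with limma, 100 were higher in kidney (0.511%) and 251 were lower (1.28%) at a Benjamini-Hochberg adjusted p under 0.05 and a difference of at least 1 log2 unit. In this limma fit every gene received the same standard error of 0.78 log2 units (2 against 3 arrays). The calls therefore rank genes by the size of the difference. Single genes did not have like spreads: the SD among the 3 comparison arrays was 0.258 for Cldn7 and 4.997 for Hoxb13. The shared spread leaves this out, and Hoxb13, Wt1, Gata4 and Aard were called although their groups overlapped. The p-values treat that shared spread as known exactly (an infinite prior degrees of freedom), and the 3 residual degrees of freedom of a single gene could not give p-values as small as those printed below. A second description asked only that the arrays be apart: in 172 genes (0.879%) both kidney arrays lay at least 1 log2 unit above all 3 others, and in 330 (1.69%) at least 1 below. Of the 100 and 251 called genes, 82 and 168 were also apart in this way. The counts depend on scaling, and with quantile normalization 16 genes (0.0818%) were called higher and 4 (0.0204%) lower, so higher calls made up 80% of all calls in place of 28.5%. Single arrays moved the counts too: limma called 2038 and 5562 genes without heart 1, 18 and 17 without kidney 1, 16 and 23 without kidney 2, 62 and 114 without gonad 3, and 81 and 130 without tail 2. With slide as a block, which leaves kidney 1 against gonad 3 as the only contrast within a slide, 1 gene was called higher and 2 lower. The exact permutation test of 2 against 3 arrays has 10 orders and cannot give a p below 0.1, so no single gene can pass it.

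The 3 kidney epithelial markers were higher on both kidney arrays than on any other array measured. Cdh16, the cadherin named for its place in kidney tubules, had levels of 3.50 and 3.73 on kidney 1 and kidney 2, and -1.77, -1.21 and -2.66 on gonad 3, heart 1 and tail 2. Pdzk1ip1, a small membrane protein of proximal tubule cells, stood at 2.26 and 2.18 in kidney and at -4.33, -4.24 and -5.93 in the same order. Pax8, a transcription factor of kidney development and tubule identity, reached -0.34 and -0.07 against -3.14, -5.35 and -5.81. Groups did not overlap for any of the 3, and none of the 13 other arrays came up to the lower kidney array. The statement on the 13 arrays also held for 35.8% of all genes tested, so alone it says little about kidney. The fitted differences ± SE were 5.50 ± 0.78 for Cdh16 (limma adjusted p = 3.1e-09), 7.05 ± 0.78 for Pdzk1ip1 (9.3e-16 by the same test) and 4.56 ± 0.78 for Pax8 (3.6e-06), with 2 against 3 arrays each. Pax8 was well above background on 1 of the 3 comparison arrays and Pdzk1ip1 on 2, so some comparison levels of these genes lie near background. Cdh16 and Pdzk1ip1 passed with quantile normalization and Pax8 did not (limma adjusted p = 0.16).

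Keratins and a claudin were also among the genes with the widest separation. Krt8, the type II keratin of simple epithelia, had levels of 3.83 and 4.24 in kidney against -1.31, -1.64 and -3.32 on gonad 3, heart 1 and tail 2. Krt18, its type I partner in the same filaments, stood at 5.91 and 6.24 against 2.18, 0.10 and -1.58. Krt17, a keratin of basal and stressed epithelium, stood at 2.74 and 3.32 against -4.12, -2.50 and -3.68. Each of these keratins was higher on both kidney arrays than on the other 3, by 6.12 (Krt8), 5.84 (Krt18) and 6.46 (Krt17) log2 units in the fit. They are not confined to kidney, since 2 of the 13 other arrays reached the lower kidney level of each. Cldn7, a tight junction claudin of the distal nephron and collecting duct, had kidney levels of 2.19 and 2.37 against -2.83, -3.34 and -3.02 (difference 5.34 ± 0.78, limma adjusted p = 1.0e-08), and its highest level on the 13 other arrays was -0.73.

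The remaining genes of the 15 with the widest gap included secreted, membrane and enzyme genes. Lcn2, the secreted lipocalin used as a marker of tubule injury, had levels of 3.56 and 4.44 in kidney against 0.30, -1.04 and -0.50 on gonad 3, heart 1 and tail 2. Mal, a proteolipid of apical membrane traffic that is abundant in distal tubule and collecting duct, had 2.98 and 3.11 against -1.28, -0.12 and -1.42. Both were separate from all 3 comparison arrays by more than 3 log2 units and passed the test (limma adjusted p = 9.5e-06 and 1.4e-04). Galnt3, an enzyme that starts mucin-type O-glycosylation, was not well above background on any of the 3 comparison arrays, and its kidney levels of -0.37 and -0.26 are at least 19.1-fold above what those arrays could measure. Dmbt1, a scavenger-receptor-rich mucosal protein, was likewise bounded at 3.19-fold or more, and Paqr5, a membrane progesterone receptor, at 7.91-fold or more. For a bound, the kidney mean is set against the lowest signal well above background on each dim array, or the probe's own signal where that is higher. Moxd1, a copper monooxygenase-like protein, Plekhs1, a pleckstrin homology domain protein, Mab21l4, and Kdf1, a regulator of epidermal differentiation, had fitted differences of 4.63, 4.48, 4.58 and 3.80. Mab21l4 was well above background on 1 of the 3 comparison arrays and Kdf1 on 2, so part of their comparison level lies near background. Just below the 15th gap of 3.06 log2 units (Kdf1) lay Krt7 at 3.02, Muc20 at 2.96 and Ifnlr1 at 2.94.

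**Figure D2:**
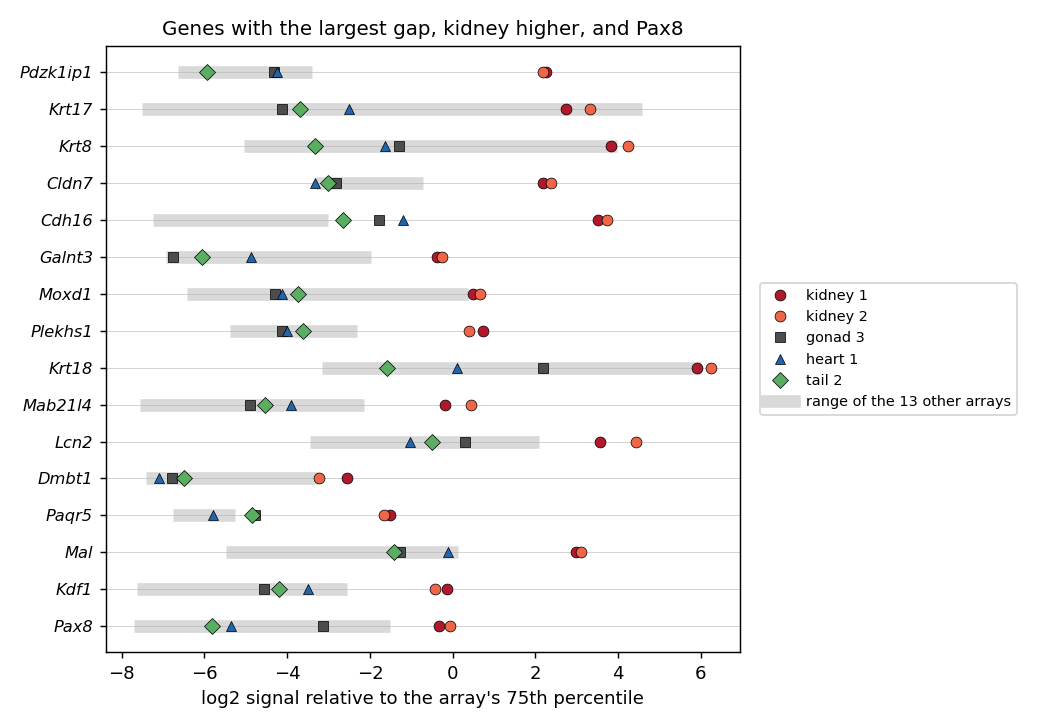
Level of each of the 15 genes with the widest kidney-higher gap and of Pax8 (horizontal axis, log2 signal relative to the 75th percentile of the array), with 1 point per high-background array and grey bars for the range of the 13 other arrays. Both kidney arrays lie to the right of the 3 comparison arrays in every row. Grey bars reach the lower kidney level for Krt17, Krt8 and Krt18 only. Over all genes tested, 35.8% have both kidney arrays above the 13 other arrays.

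All 15 genes were called by limma, 12 of them also with quantile normalization, where Krt18 (adjusted p = 0.051), Dmbt1 (0.11) and Paqr5 (0.18) missed the threshold. Since the rule chose them by the gap between these same arrays, their separation is a description. Against heart 1 alone, with the spread taken from all 18 arrays and heart 1 assumed to vary like the other groups, 7 of the 15 passed, among them Cdh16 (4.82 log2 units, limma adjusted p = 0.0061), Cldn7 (5.62, 0.0031) and Pdzk1ip1 (6.46, 0.017). Krt8 differed from heart 1 by 5.67 and Krt17 by 5.53 without passing that test. Kidney 1 and gonad 3 were on the same slide, the only slide that held both sides, and there the 15 genes were higher in kidney by 3.26 (Lcn2) to 6.85 (Krt17) log2 units. The gap rule had already set kidney above heart 1 and gonad 3 for each of the 15. Neither comparison is therefore a separate check.

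Genes of simple epithelium and cell junctions were higher in kidney as a group. All 37 listed genes were measured. Of these, 12 were called higher and 0 lower, against 0.511% and 1.28% of all genes. In 31 both kidney arrays lay above all 3 comparison arrays, against 12.7% of all genes. The median difference was 2.04 log2 units, where the median of all 19567 genes was -0.15, and quantile normalization gave 2.05. Against heart 1 the median was 1.48, and 33 of 37 genes lay above heart 1 on both kidney arrays, compared with 5010 of 19567 genes in all. By limma 4 of the 37 passed against heart 1, where 0.802% of all genes were called higher.

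Some tight junction genes of that list passed the main test and others, such as Cldn2, Cldn4, Cldn6 and Cldn8, did not. With quantile normalization limma called 3 of the 37 higher (Krt8, Cldn7 and Krt7), against 0.0818% of all genes. Cldn3 (limma adjusted p = 0.077) and Cgn (0.20) missed the threshold in that setting. Cldn3, a claudin of the distal nephron, had levels of 1.90 and 1.97 in kidney against -0.83, 0.04 and -1.62 on gonad 3, heart 1 and tail 2 (limma adjusted p = 0.031). Cgn, the junction adaptor cingulin, had 0.64 and 0.20 against -1.31, -2.86 and -3.80 (adjusted p = 0.0094). Marveld2 and Marveld3, membrane proteins of tight junctions, also passed (differences of 2.80 and 2.66). Among genes of apical traffic and epithelial proteolysis, Rab25, a small GTPase of recycling endosomes, had -0.57 and -0.14 against -3.29, -2.97 and -4.48. Myo5b, the motor that works with such GTPases, and Spint2, an inhibitor of membrane serine proteases, passed with differences of 3.06 and 2.92. Cdh1, the epithelial cadherin, had 1.28 and 1.19 against -0.78, 0.06 and -1.69, which separated the arrays but missed the threshold (limma adjusted p = 0.19). Epcam, the epithelial adhesion molecule, had 1.095 and 1.28 against -0.12, 0.92 and -0.48, a mean of 0.26 above heart 1. Grhl2, a transcription factor of epithelial junction genes, overlapped heart 1, with 1.01 and 0.33 against 0.53.

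**Figure D3:**
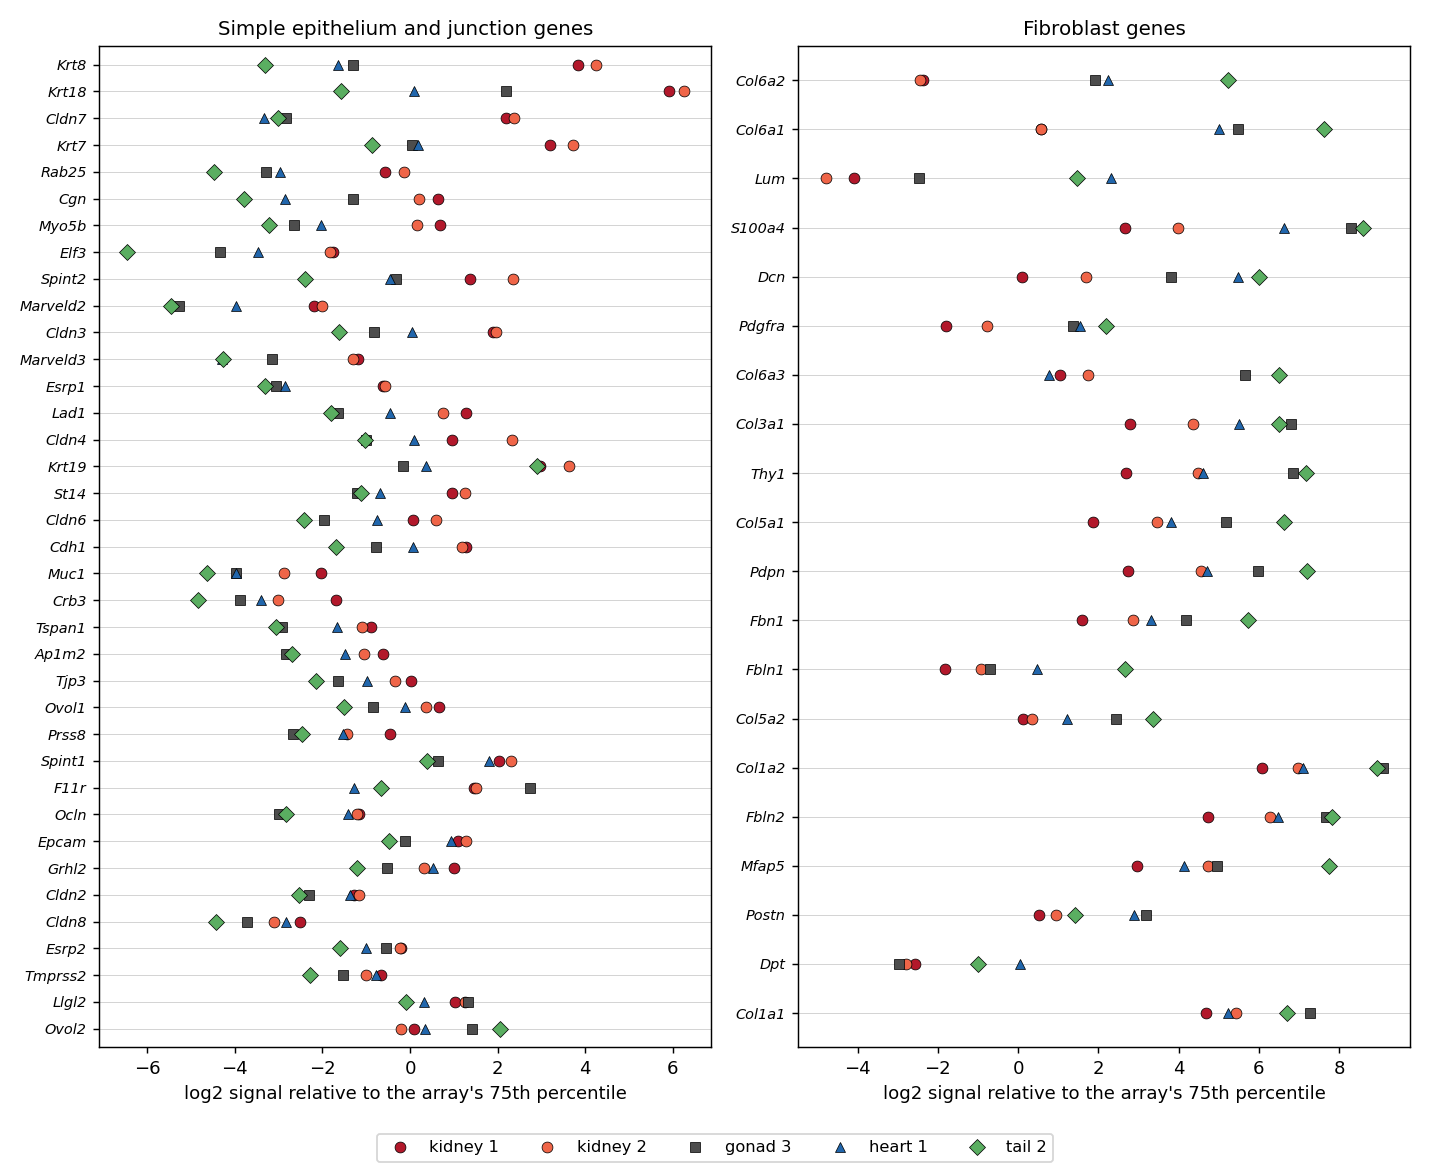
Level of every measured gene of the simple epithelium and junction list (37 genes, left) and of the fibroblast list (20 genes, right) on the 5 high-background arrays, on a horizontal axis of log2 signal relative to the 75th percentile of the array. Kidney points lie to the right of all 3 others for 31 of the 37 genes on the left, and to the left of all 3 for 16 of the 20 on the right.

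Promoters of 3 epithelial genes called higher are shown because these genes were high together and each window holds the same short motif. The sequences are RefSeq windows of GRCm38.p6, 300 bases around an annotated start, written 5′ to 3′ on the strand of the gene, with capitals for a match to AACNGGTT, the core recognised by grainyhead-like factors such as GRHL2, read on both strands. Cingulin, the recycling GTPase and the pleckstrin homology protein each hold 1 match.
Cgn (chr3:94786433-94786732, minus strand): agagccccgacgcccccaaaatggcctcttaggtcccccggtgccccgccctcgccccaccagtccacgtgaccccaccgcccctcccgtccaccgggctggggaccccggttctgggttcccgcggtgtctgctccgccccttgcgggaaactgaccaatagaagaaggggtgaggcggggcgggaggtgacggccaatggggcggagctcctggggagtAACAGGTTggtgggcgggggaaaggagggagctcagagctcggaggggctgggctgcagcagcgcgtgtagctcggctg
Rab25 (chr3:88548230-88548529, minus strand): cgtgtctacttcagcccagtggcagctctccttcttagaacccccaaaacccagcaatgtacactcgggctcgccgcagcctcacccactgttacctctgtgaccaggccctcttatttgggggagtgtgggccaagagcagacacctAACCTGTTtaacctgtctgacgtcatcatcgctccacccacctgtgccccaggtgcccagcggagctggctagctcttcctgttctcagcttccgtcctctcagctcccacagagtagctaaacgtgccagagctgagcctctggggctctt
Plekhs1 (chr19:56461387-56461686, plus strand): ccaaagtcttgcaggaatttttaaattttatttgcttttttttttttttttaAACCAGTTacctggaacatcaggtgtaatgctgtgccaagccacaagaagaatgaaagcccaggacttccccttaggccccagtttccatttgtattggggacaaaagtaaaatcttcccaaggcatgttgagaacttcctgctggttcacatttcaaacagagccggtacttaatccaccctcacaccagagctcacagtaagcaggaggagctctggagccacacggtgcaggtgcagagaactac

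A window was found by symbol for 66 of the 100 genes called higher, and 6 of these genes (9.09%) had a match in at least 1 window: Cgn, Cntn3, Kcnj16, Plekhs1, Prom1 and Rab25. The share was 2.28% of 15505 tested genes with a window and 1.08% of 185 genes called lower. Counted by window, 8.43% of 83, 1.95% of 19015 and 0.837% of 239 held it. A second motif, not named here, was also scored, with shares by gene of 10.6%, 7.08% and 5.95% in the same order. Both were chosen after the called genes had been seen, and a match is only a description of the letters. The matches in Cgn, Rab25 and Plekhs1 begin at positions -29, -102 and -198 relative to the annotated start. Mean differences for the same genes were 3.08, 3.23 and 4.48 log2 units.

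Of 6 well-known segment genes, none stood clearly apart from heart 1 in kidney. For Slc34a1, the phosphate transporter of the proximal tubule, the levels were -1.08 and -0.98 in kidney and -1.03 on heart 1. Slc12a1, the salt transporter of the thick ascending limb, had -2.96 and -3.40 against -2.92, and Aqp2, the water channel of the collecting duct, had -2.27 and -3.23 against -3.21. Umod (uromodulin of the thick limb), Slc12a3 (the salt transporter of the distal convoluted tubule) and Nphs1 (nephrin of podocytes) also overlapped it. Over these 6 genes the kidney mean was -0.26 to 0.45 log2 units from heart 1.

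The longer lists of segment genes held 1 or 2 higher calls each, where 0.511% of all genes were called higher. Of 31 proximal tubule genes, 1 was called higher (Pdzk1ip1) and 0 lower. Fxyd2, the gamma subunit of the sodium pump, came next with 1.22 and 0.96 in kidney against -1.25, -1.36 and -0.04 (difference 1.97, limma adjusted p = 0.22). Against heart 1 alone Fxyd2 differed by 2.45 and passed (limma adjusted p = 0.0011). Of 21 genes of the loop of Henle and distal tubule, 1 was called higher: Kcnj16, a basolateral potassium channel, with -0.47 and -1.89 against -5.22, -4.28 and -5.15, and thus apart from heart 1 by 3.10 without passing that test. Among 27 collecting duct genes 2 were called higher, Mal and Krt7, a keratin of ducts (3.20 and 3.73 against 0.04, 0.18 and -0.88). The median differences were 0.55, 0.52 and 0.67 against all 3 arrays, and -0.10, -0.08 and 0.15 against heart 1. Of 16 podocyte and parietal cell genes, 1 was called higher, Wt1, a regulator of podocytes, mesothelium and gonad: its kidney levels of 0.43 and 1.46 lay above heart 1 (-2.52) and tail 2 (-5.88) and below gonad 3 (3.22), so the groups overlapped.

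Genes linked to injured or cultured tubule epithelium had calls in both directions. Of 27 measured, 7 were called higher and 1 lower, against 0.511% and 1.28% of all genes, with a median difference of 1.11 (0.96 against heart 1). Havcr1, the kidney injury molecule of damaged proximal tubule, had levels of 1.85 and 1.13 in kidney against -1.40, -0.81 and -2.43, a difference of 3.04 ± 0.78 (limma adjusted p = 0.011). None of the 13 other arrays reached these levels, the highest being -2.24, as was the case for 35.8% of all genes. Krt8, Krt18, Krt7 and Lcn2, described above, also belong to this list. Cd24a, a surface glycoprotein of regenerating tubule, had 2.96 and 3.21 against 2.63, -6.57 and 0.35, and Prom1, a membrane protein of the same cells, had 1.88 and 1.30 against 0.95, -3.50 and -4.11. Both were called, yet gonad 3 came within 1 log2 unit of kidney. Vcam1, an adhesion molecule of inflamed tubule that fibroblasts also make, was the gene called lower, with -0.21 and 1.05 against 1.70, 3.09 and 5.22. Clu (5.85 and 6.66) and Spp1 (3.66 and 3.46), both secreted by injured tubule, overlapped the comparison arrays.

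Among 27 transcription factors of kidney epithelium, 3 were called higher and 0 lower, against 0.511% and 1.28% of all genes. Besides Pax8 these were Tfap2b, an AP-2 factor of the distal nephron, and Elf3, an ETS factor of epithelium. Tfap2b was not well above background on any comparison array, so its kidney levels of -2.67 and -2.88 give a bound of at least 3.44-fold. Elf3 had -1.76 and -1.84 in kidney against -4.33, -3.48 and -6.46 (limma adjusted p = 0.014). Pax2, the paralogue of Pax8, had 1.15 and 0.92 against 0.44 on heart 1, 0.59 apart on average. None of the 3 called factors passed with quantile normalization.

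The 10 genes with the widest gap in the lower direction included chains of type VI collagen and other secreted proteins. Ccn5, a matricellular protein of fibroblasts and smooth muscle, had levels of -3.22 and -3.06 in kidney against 4.95, 4.89 and 6.35 on gonad 3, heart 1 and tail 2, the widest gap of all genes in either direction. Its difference was -8.54 ± 0.78 (limma adjusted p = 1.3e-23), and the 13 other arrays ran from 3.70 to 7.19. Both kidney arrays lay below all 13 in 42.1% of all genes. Col6a1, a chain of type VI collagen, had 0.58 and 0.57 against 5.48, 5.00 and 7.63. Col6a2, the second chain of that collagen, had -2.36 and -2.44 against 1.92, 2.25 and 5.24. Both chains were thus separated from every comparison array by more than 4 log2 units. Col6a3, another chain of that collagen, had 1.04 and 1.74 against 5.66, 0.78 and 6.50. It was called lower, yet both kidney arrays lay above heart 1.

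Islr, a surface protein of mesenchymal progenitors, was at -2.34 and -2.47 in kidney against 2.02, 1.94 and 4.90. Sod3, the extracellular superoxide dismutase, was at -2.02 and -1.67 against 2.65, 3.39 and 5.87. Sfrp2, a secreted Wnt modulator, was at -3.89 and -4.42 against 3.04, -0.12 and 6.86. Kidney was lowest of the 5 arrays in each case, though for Sfrp2 1 of the 13 other arrays was as low. Vegfd, a lymphatic growth factor, Dclk1, a doublecortin-like kinase, Serping1, the C1 inhibitor, and Pcsk6, a proprotein convertase, had differences of -5.01, -4.58, -4.23 and -3.94. With quantile normalization Ccn5 and Dclk1 passed and the other 8 did not, although 7 of these 8 kept differences between -3.72 (Pcsk6) and -7.15 (Sfrp2). The difference of Serping1 became -1.94. Against heart 1 alone 8 of the 10 passed, led by Ccn5 at -8.03 (limma adjusted p = 0.0011). The 10 genes were chosen by their gap to these arrays, heart 1 included, so the comparison with heart 1 is no separate check. Just outside the 10th gap of 3.19 (Pcsk6) lay Adm and Cebpd at 3.15 and Trf at 3.11.

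**Figure D4:**
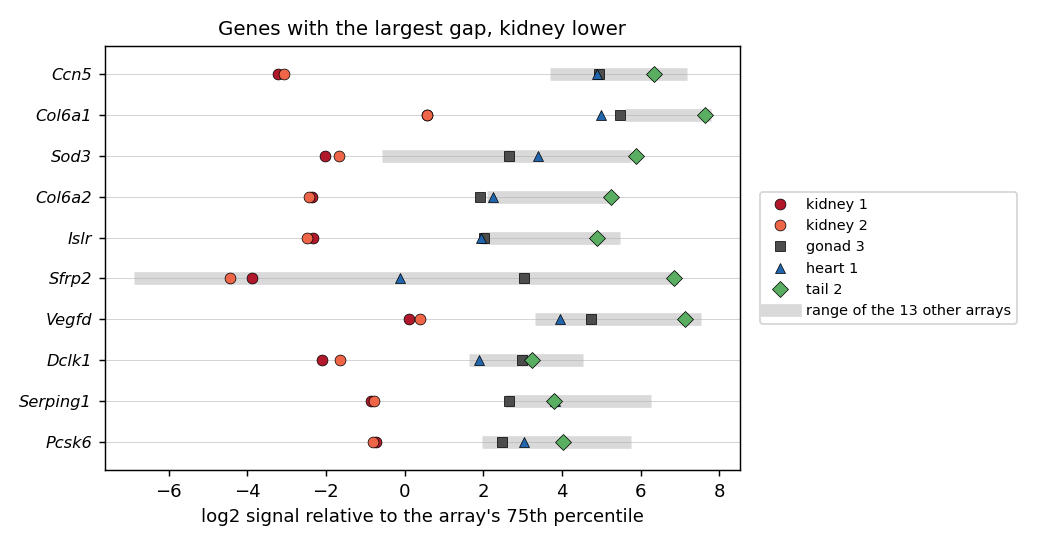
Level of each of the 10 genes with the widest kidney-lower gap (horizontal axis, log2 signal relative to the 75th percentile of the array), with 1 point per high-background array and grey bars for the range of the 13 other arrays. Both kidney arrays lie to the left of the 3 comparison arrays in every row, and of the grey bar in every row but Sfrp2. Over all genes tested, 42.1% have both kidney arrays below the 13 other arrays.

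Fibroblast genes as a group were lower in kidney. All 20 were measured, and 9 were called lower and 0 higher, against 1.28% and 0.511% of all genes. In 16 both kidney arrays lay below all 3 comparison arrays, against 17.3% of all genes. The median difference was -2.43, or -1.51 with quantile normalization and -1.50 against heart 1. By limma 7 of the 20 passed against heart 1, where 1.39% of all genes were called lower. Dcn, the proteoglycan decorin, had levels of 0.10 and 1.70 in kidney against 3.82, 5.49 and 6.01. Lum, its relative lumican, had -4.10 and -4.78 against -2.47, 2.31 and 1.48, and Pdgfra, the PDGF receptor that marks fibroblasts, had -1.79 and -0.78 against 1.38, 1.55 and 2.19. S100a4, a calcium-binding protein used as a fibroblast marker, had 2.66 and 3.98 against 8.29, 6.63 and 8.59. Of the 9 called members none passed with quantile normalization (limma), where 0.0204% of all genes were called lower.

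Type I collagen was closer to the comparison arrays than those genes. Col1a1 had levels of 4.70 and 5.44 in kidney against 5.25 on heart 1 and 7.28 and 6.71 on gonad 3 and tail 2, so kidney and heart 1 overlapped. Col1a2 showed a similar order, with 6.07 and 6.99 against 7.10, 9.09 and 8.95. The housekeeping gene Actb gave 6.45 and 7.40 against 7.22, 9.20 and 9.06, so it too was highest on gonad 3 and tail 2. The 15 housekeeping genes had a median difference of -1.46 against all 3 arrays, and the sign turned to 0.01 with quantile normalization, with normexp and in the deposited value table. Against heart 1 their median was -0.30. By limma 0 of the 15 were called, with 7 at an unadjusted p under 0.05. Housekeeping genes and type I collagen thus had shortfalls of like size against the 3 arrays. Col6a1, Col6a2, Dcn, Lum and S100a4 were lower than heart 1 and passed that test, with kidney minus heart 1 at -4.43, -4.65, -4.59, -6.74 and -3.31 log2 units. Of 15 contractile genes 0 were called by limma (4 at an unadjusted p under 0.05), and the groups overlapped in all 15. Over all genes the groups overlapped in 13709 of 19567. Among the contractile genes, Acta2, the smooth muscle actin of activated fibroblasts, had 6.13 and 7.27 against 9.35, 6.63 and 8.77.

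Genes of the renal stroma were not higher in kidney by the test, where 0.511% of all genes were called higher and 1.28% lower. Of 21 measured, 0 were called higher and 3 lower: Notch3, a receptor of pericytes and smooth muscle (-1.06 and -1.19 against 2.77, 1.43 and 1.80), Pdgfra, and Agtr1a, the angiotensin receptor. Agtr1a was low on heart 1 too (-3.75) and had -2.65 and -3.53 in kidney, so that call rests on gonad 3 and tail 2. Foxd1, the factor of renal stromal progenitors, had -3.50 and -3.95 against -4.21 on heart 1, and Ren1, renin, had 0.65 and -0.30 against -0.21. Foxd1 overlapped tail 2 (-3.83), Ren1 overlapped heart 1, and neither passed the test.

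Markers of other cell types that such a culture could hold were examined over all measured members of their lists. Of the listed genes, 12 of 18 macrophage and leukocyte genes and 11 of 13 mesothelial genes were measured. By limma, 0 of 17 endothelial genes were called (2 at an unadjusted p under 0.05), and 0 of 12 macrophage and leukocyte genes (0 at that p). The list median on kidney 1 and kidney 2 was -0.65 and -1.13 for endothelial genes, against 1.13, -1.42 and -2.91 on gonad 3, heart 1 and tail 2, and -0.39 and -0.34 for macrophage genes, against -1.19, -0.57 and -1.47. Levels on this scale have no true zero, so no marker is given as absent. Of 11 mesothelial genes 2 were called higher (Wt1 and Msln) and 1 lower (Efemp1), against 0.511% and 1.28% of all genes. For Wt1, gonad 3 exceeded kidney. Msln, mesothelin, had 2.90 and 3.18 in kidney, 2.66 on gonad 3, and -0.91 and -2.23 on heart 1 and tail 2. Of 20 keratinocyte genes 1 was called higher, Krt17, while Krt5 (1.11 and 0.63 against 0.71 on heart 1) and Krt14 (-0.65 and -0.90 against -1.59) were not. The part of these cell types in the differences above was not tested.

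Interferon-stimulated genes as a group were lower in kidney than on the 3 comparison arrays, with the highest levels on heart 1 and tail 2. Of 17 measured, 7 were called lower and 0 higher, against 1.28% and 0.511% of all genes, with a median difference of -2.06 (-2.14 with quantile normalization, -3.72 against heart 1). Isg15, a ubiquitin-like protein induced by interferon, had levels of 1.19 and 1.54 in kidney against 2.92, 6.02 and 4.48. Usp18, which removes that protein, had -2.60 and -2.82 against -0.50, 2.40 and 1.09, and Stat2, a transducer of the interferon signal, had -1.15 and -0.88 against 1.61, 2.39 and 2.75. Kidney was lowest for each, and gonad 3 came next. On the 13 other arrays Isg15 ran from 1.64 to 8.54, so this group of genes varied widely between cultures of other organs too. Both kidney arrays lay below all 13 for 6 of the 17 genes, against 42.1% of all genes. Hox genes, which record position along the body, gave 1 call of 21 in groups 1 to 8 (Hoxa3, higher) and 1 of 14 in groups 9 to 13 (Hoxb13, lower). Against heart 1 alone 8 of the 21 genes of groups 1 to 8 passed higher (limma, 0.802% of all genes), with a median of 1.45, and 18 of 21 lay above heart 1 on both kidney arrays. Over all genes 5010 of 19567 lay above heart 1 in that way. Against gonad 3, 8 of 21 did so, near the share of all genes (7714 of 19567). Hoxb13 was high on tail 2 alone (5.89), with -2.69 and -2.85 in kidney, -3.18 on gonad 3 and -2.28 on heart 1. Hoxa3 had 0.40 and 1.56 in kidney and 0.69 on gonad 3, so neither gene set kidney apart from all 3 arrays. Of 18 gonadal somatic genes 0 were called higher and 2 lower, Gata4 and Aard, and of 13 heart regulators 0 were called higher and 1 lower, Gata4. Of 20 cell cycle genes 0 were called by limma (0 at an unadjusted p under 0.05), and their median difference of -0.54 turned to 0.29 with quantile normalization.

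**Figure D5:**
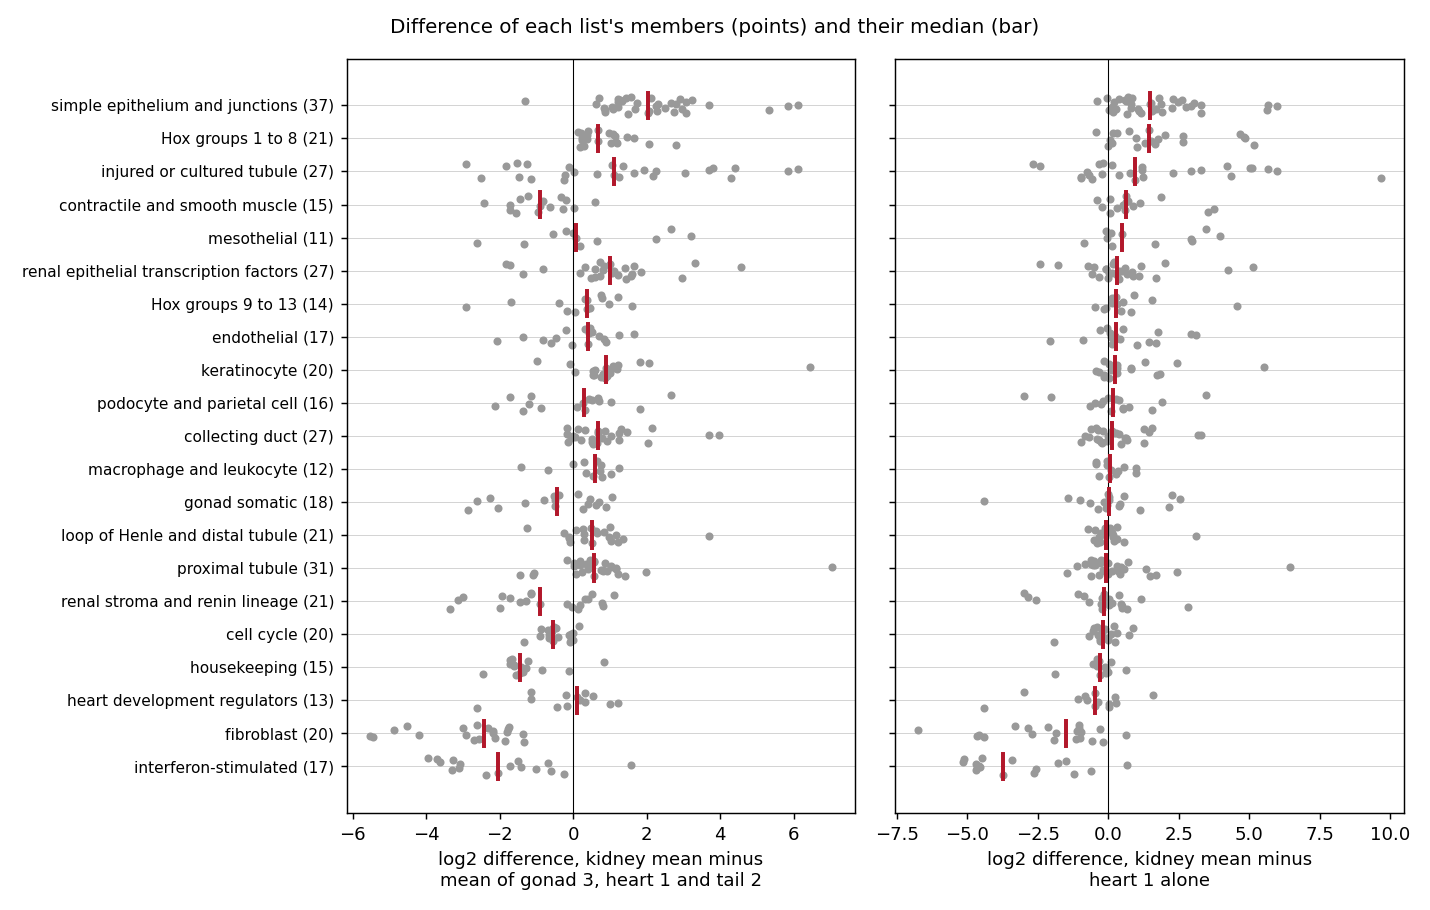
Difference in log2 level between the kidney mean and the mean of gonad 3, heart 1 and tail 2 (left) or heart 1 alone (right) for each gene of the lists (grey points, with the number measured in brackets), and their median (red bar). Of the 21 lists drawn, simple epithelium has the highest median on both sides (2.04 and 1.48), fibroblast and interferon-stimulated genes have the lowest, and housekeeping genes have -1.46 and -0.30 (0.01 against the 3 arrays with quantile normalization).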

How the data were processed

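RNA from 19 cultures was hybridised to 1-colour Agilent mouse arrays, and 18 scanner files were used (lung replicate 2 was not analysed here). The deposited intensity values are processed spot signals, background-subtracted by Agilent Feature Extraction, per the file headers, which also give the well-above-background flags and negative-control statistics. The deposited value table holds raw median spot intensity, equal to that of the scanner files at all 62976 spots of each array compared, and served as an alternative after quantile normalization. Spots of a probe were averaged, log2 signals were centred on the 75th percentile of each array, and each gene took its brightest probe measured on all 5 arrays and well above background on at least 2. Kidney was compared with gonad 3, heart 1 and tail 2 in limma 3.58.1 (R 4.3.3), with Benjamini-Hochberg adjustment over 19567 genes. The fit was also run on simulated data with independent noise for each gene and no array-wide differences in background or scale. That run cannot show how such differences affect the calls. Named genes are the 15 and 10 widest gaps between arrays, leaving out predicted and clone names, plus the given markers and list members. The 15 had to be well above background on both kidney arrays and the 10 on all 3 comparison arrays. No limma call was required. The members and lists were chosen with earlier results of these data known. The comparison with heart 1 alone and the scaling to coordinate-named probes were chosen after seeing the data. Alternatives covered scaling, background correction, filters, probe choice, blocks and left-out arrays. The number of arrays limits precision.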

Additional observations from a re-analysis of the deposited data

Results flagged for a closer look

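Probes that the array design names by genome coordinates and by no gene stood outside the gene comparison. Of 15530 such probes measured on all 5 arrays, 90 (0.580%) were well above background and at least 1 log2 unit higher on both kidney arrays than on all 3 comparison arrays, and 14 (0.090%) were lower by the same criterion. This signal was listed because it lies in data the gene comparison did not use. No test was run on it.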

How the results depend on the processing

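The 100 higher and 251 lower calls became 16 and 4 with quantile normalization, 19 and 7 with normexp and quantile, 19 and 6 in the deposited value table, and 61 and 98 with the mean of probes. Higher calls were 28.5% of all calls in the main setting, 80% with quantile normalization and 73.1% with normexp. Scaling to the median of detected probes, which moves the median of all genes to -0.45, left 0 and 0 calls by limma (1550 genes at an unadjusted p under 0.05), and the added scaling to coordinate-named probes also left 0 and 0 (902 at that p; median -0.56). A filter on all 5 arrays gave 54 higher. The slide block gave 1 and 2, the floor covariate 16 and 7, the spread from all arrays 905 and 5271, and all 6 other organs as comparison 7247 and 8115. Against heart 1 alone 157 were higher, and an adjusted p under 0.10 gave 380 lower. Leaving out 1 array gave 16 to 2038 higher and 17 to 5562 lower calls, the highest counts without heart 1.

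For genes apart by at least 1 log2 unit (172 and 330), leaving out 1 array gave 231 to 1699 higher and 380 to 4539 lower, with 1699 and 4539 without heart 1, 669 and 1115 without kidney 2, and 272 higher without gonad 3. The all-array filter gave 83 higher, heart 1 alone 566 and 527, any gap above 0 2479 and 3379, and a gap of 2 log2 units 46 and 52. All 25 genes of the widest gaps kept their sign in each setting run on them. They were chosen for wide gaps on these same arrays, so the kept sign is a description. The number of them called by limma was 25 with the mean of probes, 14 with quantile normalization and 12 with the floor covariate. It was 0 with scaling to the median of detected probes or of coordinate-named probes.

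Of 95 named genes the sign was kept in 88 with the slide block, 85 with the floor covariate, 84 against heart 1, 93 against 6 organs and 91 with quantile normalization. Where the gene was called in either setting, signs turned for Wt1 (-2.79), Hoxa3 (-0.29) and Hoxb13 (0.49) with the slide block, Hoxb13 (0.60) against 6 organs, Agtr1a (0.66) and Aard (1.13) against heart 1, and Aard (0.51) with the floor covariate. The housekeeping median turned to 0.0072 with quantile normalization, 0.0068 with normexp and 0.0068 in the value table. The cause was not tested.

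Only 2 replicate numbers are shared between the sides, kidney 1 with heart 1 and kidney 2 with tail 2, with deviation correlations of 0.54 and 0.45, so they were not taken as pairs. With the replicate number as a block the calls were 183 and 414.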

Other observations

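A few genes outside the lists with both kidney arrays above the 3 comparison arrays were chosen after their values were seen. Pdgfb, a growth factor for mesenchymal cells, had levels of 3.13 and 3.93 in kidney against 2.03, -3.66 and -3.15 on gonad 3, heart 1 and tail 2. Ppbp, a platelet chemokine, had 0.88 and 1.52 against -6.80, -7.00 and -0.16. Hkdc1, a hexokinase relative, had -0.88 and -1.94 against -5.87, -4.58 and -6.57, and Wnt10a, a Wnt ligand, had 0.31 and -0.10 against -4.65, -5.58 and -2.71. Kidney was highest for each, although gonad 3 came near it for Pdgfb and tail 2 for Ppbp.

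With 2 kidney arrays whose span of signals differed from gonad 3 and tail 2, small differences cannot be separated from scale. Array background and organ cannot be told apart for kidney, since both kidney arrays carry a high background.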
